A study of Mus musculus with 3 samples.

Results

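The 5 genes of the NF-κB Rel family, Nfkb1, Nfkb2, Rel, Rela and Relb, were taken by gene name from the 55536 genes of the GENCODE M21 annotation (22028 of them protein-coding). Their RNA was measured in chromatin-bound RNA of C57BL/6J mouse macrophages derived from bone marrow, primary cells that mature from marrow progenitors in culture. All 3 libraries had the same treatment with Lipid A, the portion of lipopolysaccharide sensed by TLR4. The cells received 100 ng/ml for 12 h, were kept without it for 12 h after washing, and then met 100 ng/ml again for 25 min. No untreated or singly treated cells were analysed here, so the values describe levels within 1 state. The libraries are numbered as biological replicates but carry 1 donor identifier, so the SDs (n = 3 throughout) measure the spread between these libraries, which may be technical.

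NF-κB is a dimer of Rel proteins that share a DNA-binding domain. Rela (p65), Rel (c-Rel) and Relb carry transactivation domains. Nfkb1 and Nfkb2 encode the precursors p105 and p100, whose C-terminal ankyrin repeats hold Rel dimers in the cytoplasm until processing leaves the DNA-binding subunits p50 and p52. In macrophages TLR4 activates the canonical arm, in which the IKK complex triggers the loss of IκB proteins. The noncanonical arm, run by the kinase NIK, processes p100 and releases Relb. Chromatin-bound RNA holds transcripts still being made or retained beside the gene, so unspliced and partly spliced RNA is expected in it.

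The sequences in this paragraph mark annotated gene starts and the borders where exon passes into kept intron. The Nfkb2 sequence labelled the upstream start is from the window that holds the start of Nfkb2-201, a transcript listed at 0 in every library. The first 4 come from RefSeq (GRCm38.p6) promoter windows, which cover 250 bases before and 50 after a gene start. Capitals mark matches to the κB consensus, the element that Rel dimers bind, searched on both strands with overlapping matches joined. The last 5 are exon to intron borders (GENCODE M21, GRCm38) with 30 bases each side, where capitals mark the intron bases and lower case the coding exon of the spliced transcripts.
Rel, 250 bases upstream, chr11:23770970-23771219, minus strand: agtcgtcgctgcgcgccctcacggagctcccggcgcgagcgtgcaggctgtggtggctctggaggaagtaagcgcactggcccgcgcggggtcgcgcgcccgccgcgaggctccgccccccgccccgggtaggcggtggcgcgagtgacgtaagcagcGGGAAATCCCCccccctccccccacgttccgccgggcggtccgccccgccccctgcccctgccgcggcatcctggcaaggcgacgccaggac
Nfkb2, 250 bases upstream of the start of Nfkb2-202, chr19:46305445-46305694, plus strand: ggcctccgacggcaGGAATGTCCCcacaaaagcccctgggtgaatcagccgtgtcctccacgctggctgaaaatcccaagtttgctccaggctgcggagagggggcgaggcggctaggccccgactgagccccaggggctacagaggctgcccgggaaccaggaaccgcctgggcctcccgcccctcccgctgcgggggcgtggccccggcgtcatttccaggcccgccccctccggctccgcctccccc
Nfkb2, at the start of Nfkb2-202, chr19:46305695-46305724, plus strand: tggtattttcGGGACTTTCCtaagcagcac
Nfkb2, at the upstream start, chr19:46304689-46304718, plus strand: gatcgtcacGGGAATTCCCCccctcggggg
Nfkb1-204, exon into intron, chr3:135612384-135612443, minus strand: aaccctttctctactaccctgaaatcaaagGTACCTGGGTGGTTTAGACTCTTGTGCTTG
Nfkb1-208, intron into exon, chr3:135618938-135618997, minus strand: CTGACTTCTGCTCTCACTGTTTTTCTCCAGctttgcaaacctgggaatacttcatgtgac
Nfkb1-210, exon into intron, chr3:135603680-135603739, minus strand: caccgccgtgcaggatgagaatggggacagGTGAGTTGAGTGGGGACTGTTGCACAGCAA
Nfkb2-207, exon into intron, chr19:46306335-46306394, plus strand: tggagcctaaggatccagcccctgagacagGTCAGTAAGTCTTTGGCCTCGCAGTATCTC
Relb-206, intron into exon, chr7:19616408-19616467, minus strand: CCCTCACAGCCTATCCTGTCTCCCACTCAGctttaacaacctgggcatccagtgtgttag

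Annotated genes held 13502401, 17848798 and 17824176 expected counts in replicates 1, 2 and 3, whose starting RNA was 1000, 250 and 500 ng. The ribosomal RNA locus on chromosome 17 took 11.1%, 31.8% and 24.8% of them. Replicates differed beyond sampling noise, with a chi-square per degree of freedom of 109, 61.3 and 24.3 for replicates 1 and 2, 1 and 3, and 2 and 3. All 10 macrophage markers were detected, with a summed level of 1156 to 1221 TPM (transcript abundance per length, scaled to the same total in each library). Of the markers of other cells, 1 of 6 for B cells (Cd22, 5.32 TPM on average), 1 of 6 for T cells (Cd4, 7.90 TPM) and none of 6 each for dendritic cells, neutrophils and fibroblasts were detected in the gene table. The second quantification, described below, put 1 of 6 B cell, 3 of 6 T cell, 2 of 6 dendritic cell, 1 of 6 neutrophil and 1 of 6 fibroblast markers past the same level. Of 22028 protein-coding genes, 9689 passed that level in the gene table and 11833 in the second quantification. Cd3d, named after its values were seen, averaged 12.1 TPM there against 0.03 TPM in the gene table. In the gene table the summed levels of these lists were 2.48 to 8.72 TPM for B cells, 6.47 to 10.3 for T cells, 1.49 to 2.55 for dendritic cells, 0.490 to 0.720 for neutrophils and 0.02 to 1.6 for fibroblasts. Pax5, Cd3e, S100a8, Elane and Ly6g were listed at 0 in every gene table.

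All 5 Rel genes were detected, that is, reached 1 TPM in every library, against 44.0% of protein-coding genes (9689 of 22028). Together they held 7754, 7511 and 9537 expected counts in replicates 1 to 3, or 0.0574%, 0.0421% and 0.0535% of each library. Their levels summed to 186, 159 and 181 TPM. By mean level they ranked 747 (Nfkb1), 1611 (Nfkb2), 2486 (Relb), 3224 (Rela) and 3390 (Rel) among the 9689 detected genes, so each lay in the upper part of the expressed genes. In bulk RNA, fewer cells of a type and less RNA per cell cannot be told apart.

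Of the precursor genes, Nfkb1 (ENSMUSG00000028163.17, chromosome 3, 135584655 to 135691547, minus strand), source of p105 and p50, had 80.6, 65.6 and 69.7 TPM in replicates 1, 2 and 3. That was the highest level of the family in each gene table, with a mean of 71.96 ± 7.75 TPM on 3083, 2926 and 3258 expected counts. Nfkb2 (ENSMUSG00000025225.15, chromosome 19, 46304320 to 46312385, plus strand), source of p100 and p52, had 38.1, 39.0 and 42.0 TPM. Its mean was 39.7 ± 2.06 TPM, the highest of these values being 1.10 times the lowest. Nfkb1 spans 106.9 kb and Nfkb2 8.066 kb.

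The 3 genes with transactivation domains had lower levels in the gene table. Relb (ENSMUSG00000002983.17, chromosome 7, 19606217 to 19629438, minus strand), the partner of p100 and p52, had 24.8, 23.7 and 29.96 TPM (mean 26.1 ± 3.37). Rela (ENSMUSG00000024927.8, chromosome 19, 5637483 to 5648130, plus strand), the main canonical subunit, had 22.1, 17.5 and 18.5 TPM (mean 19.4 ± 2.43). Rel (ENSMUSG00000020275.9, chromosome 11, 23736847 to 23770970, minus strand), the c-Rel subunit prominent in blood cells, had 20.7, 13.3 and 20.8 TPM (mean 18.3 ± 4.31). Rel was low in replicate 2 alone, and the highest of its values was 1.57 times the lowest. Rel drew 2002, 1549 and 2595 expected counts against 511, 525 and 622 for Rela, although their levels per length overlapped. The mean effective length behind those counts was 7259, 7207 and 7223 bases for Rel in replicates 1 to 3, against 1732, 1853 and 1948 bases for Rela.

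Of the summed level of the family in the gene table, Nfkb1 made up 43.3%, 41.2% and 38.5% in replicates 1 to 3 and Nfkb2 20.4%, 24.5% and 23.2%. Relb made up 13.3%, 14.9% and 16.6%, Rela 11.9%, 11.0% and 10.2%, and Rel 11.1%, 8.36% and 11.5%. In the second quantification, a separate set of transcript levels summed per gene, Rela made up 22.2%, 24.8% and 26.6%. Rela thus took a share there close to those of Nfkb1 (27.9%, 30.4% and 24.4%) and Nfkb2 (26.8%, 24.7% and 25.96%).

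The second quantification gave Nfkb1 74.4 ± 12.5 TPM and Rel 19.2 ± 6.07 TPM, near their first values. It gave Nfkb2 70.7 ± 15.7 TPM (85.4, 54.3 and 72.3 in replicates 1 to 3) and Relb 41.3 ± 9.00 TPM (48.9, 31.4 and 43.7). Rela moved most, to 66.4 ± 10.5 TPM (70.7, 54.4 and 74.1), which is 3.43 times its mean in the gene table. All values of Nfkb2, Relb and Rela in the second quantification lay above all those in the first. The gene table also carries an interval around a posterior mean TPM, whose level is not stated in the sources used here. For Rela it was wide, 19.1 to 29.2, 15.7 to 24.2 and 16.4 to 22.95 TPM in replicates 1 to 3. The reported TPM lay inside the interval for Nfkb2, Rela and Relb in each library and above it for Nfkb1 and Rel in each library, 6 of 15 values in all.

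**Figure D1:**
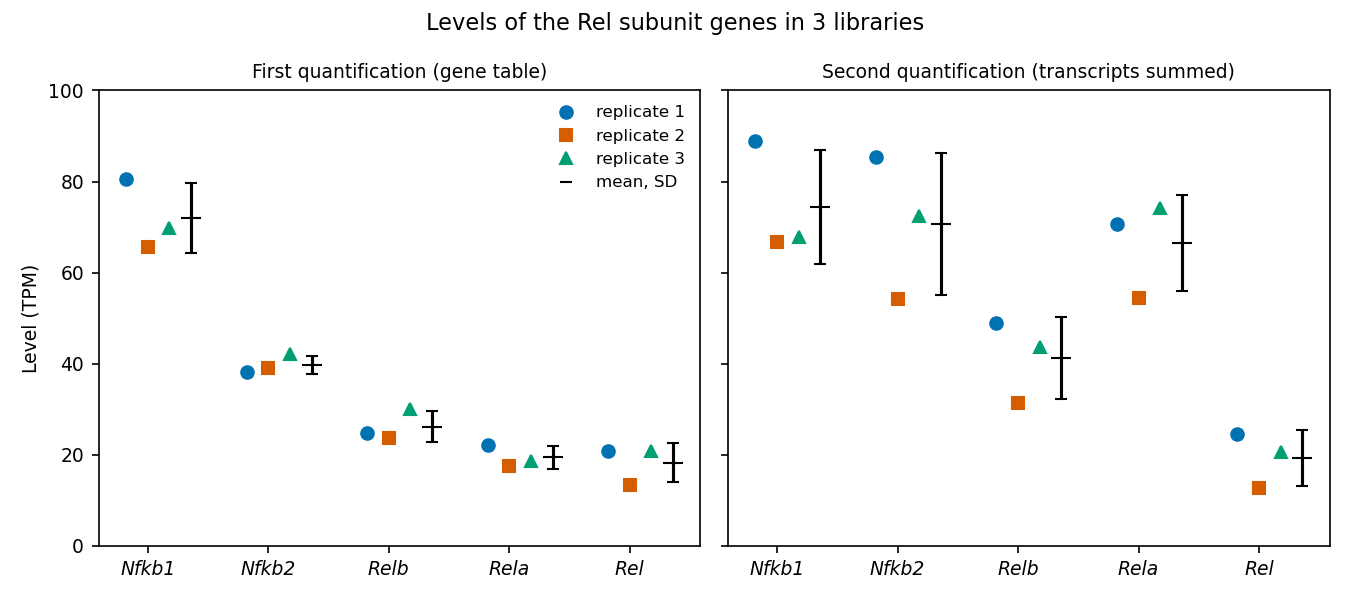
Level of each Rel gene in TPM (vertical axis, linear) by library, from the gene table on the left and from the second transcript table, summed per gene, on the right; symbols are replicates 1 to 3 and bars the mean ± SD. Nfkb1 was highest in the gene table, while Rela stood at 54.4 to 74.1 TPM on the right against 17.5 to 22.1 TPM on the left.

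The 10 pairs of genes were compared within each library on the log2(TPM + 1) scale, with an exact two-sided sign-flip permutation test over the 3 libraries whose smallest possible p is 0.25. In the gene table Nfkb1 stood above Nfkb2 by 0.84 ± 0.19, above Relb by 1.43 ± 0.24, above Rela by 1.84 ± 0.02 and above Rel by 1.94 ± 0.26. Nfkb2 stood above Relb by 0.59 ± 0.11, above Rela by 1.00 ± 0.21 and above Rel by 1.10 ± 0.34. Relb stood above Rela by 0.41 ± 0.26 and above Rel by 0.51 ± 0.27. Each of these 9 differences was positive in 3 of 3 libraries, with an exact permutation p of 0.25 (0.278 adjusted over the 10 pairs), so none could reach 0.05 in this design. Rela and Rel, neighbours at the low end, did not differ beyond their spread: 0.10 ± 0.27, positive in 2 of 3 libraries (exact permutation p = 0.75, adjusted 0.75).

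The order depended on the quantification. In the second one Relb minus Rela was -0.68 ± 0.14, negative in 3 of 3 libraries, and Rela exceeded Rel by 1.77 ± 0.27 in 3 of 3. Nfkb1, Nfkb2 and Rela were then not separated beyond their spread: Nfkb1 minus Nfkb2 was 0.09 ± 0.19, Nfkb1 minus Rela 0.16 ± 0.25 and Nfkb2 minus Rela 0.08 ± 0.17. Rel remained the lowest, 1.09 ± 0.15 below Relb on the same scale.

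The annotated transcripts that carried these levels differed widely between the genes. Transcripts of the annotation class retained_intron held 76.4% ± 6.97 of the Nfkb1 level in the first transcript table, with 84.4%, 72.9% and 71.9% in replicates 1 to 3. The share was 41.3% ± 5.49 for Relb, 23.2% ± 5.34 for Rela and 14.0% ± 3.63 for Nfkb2. Shares in the second table were 67.5% ± 7.73 for Nfkb1, 42.2% ± 3.57 for Relb, 28.7% ± 2.13 for Rela and 17.5% ± 1.82 for Nfkb2, in the same order. That order holds for TPM, in which short models weigh more. As shares of counts the first and second tables gave 79.9% and 76.2% for Nfkb1, 63.9% and 70.05% for Relb, 12.5% and 19.65% for Nfkb2, and 7.03% and 18.5% for Rela. Among 4726 genes with both protein-coding and retained-intron transcripts and at least 5 TPM in every library, the median share of TPM was 46.0% in the first table and 44.9% in the second. Nfkb1 lay at percentile 92.6 (83.8 in the second table), Relb at 42.1 (45.4), Rela at 15.5 (25.0) and Nfkb2 at 6.77 (10.1). Rel has 1 annotated transcript, Rel-201, so all of its level counts as protein-coding by construction.

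Protein-coding transcripts held 78.8% ± 4.23 of Nfkb2, 63.3% ± 9.16 of Rela, 42.0% ± 3.62 of Relb and 21.3% ± 5.08 of Nfkb1 in the first table. In the second they held 58.4% ± 7.61, 29.1% ± 3.52, 29.6% ± 6.81 and 19.3% ± 0.309 of the same genes in that order. Beside its coding and retained-intron transcripts, Rela had transcripts marked for nonsense-mediated decay (8.18% ± 5.27, and 19.2% ± 3.06 in the second table) and processed transcripts (5.33% ± 3.51, and 23.0% ± 2.38).

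**Figure D2:**
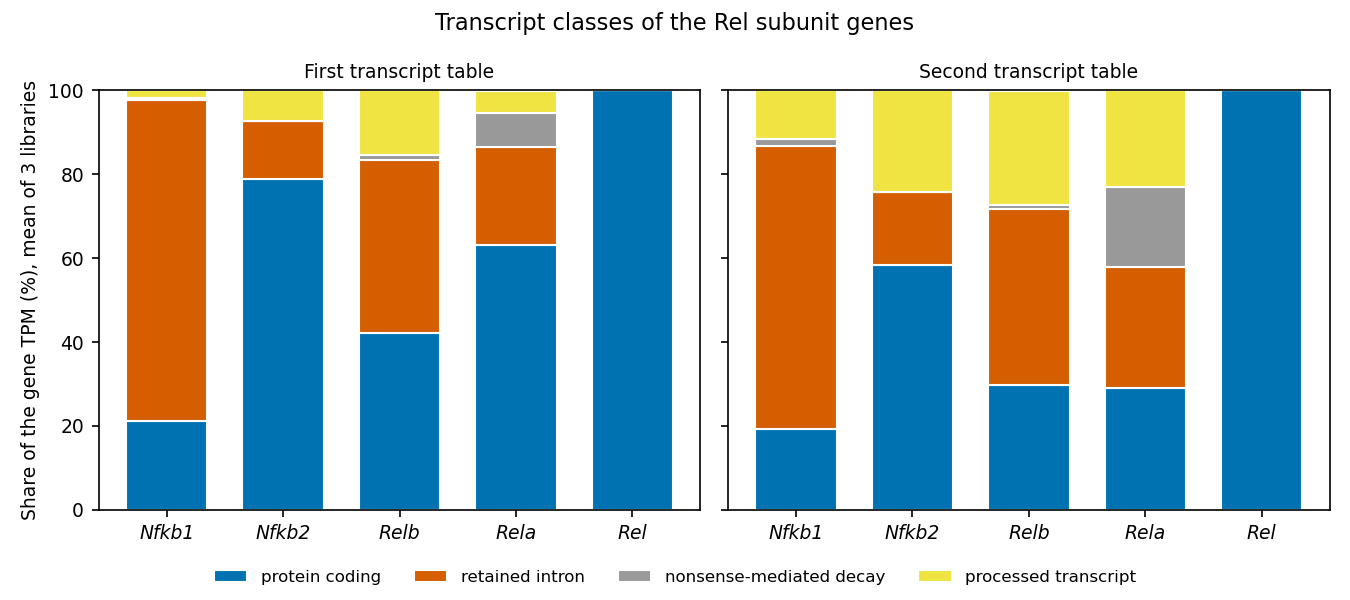
Share of each gene's TPM (vertical axis, percent, mean of 3 libraries) in 4 annotated transcript classes, from the first transcript table on the left and the second on the right. Retained-intron transcripts made up 76.4% and 67.5% of Nfkb1, against 14.0% and 17.5% of Nfkb2.

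Most of the Nfkb1 level lay in models that cover only a stretch of the gene. The transcript with the largest share was Nfkb1-204, which starts at the first base of the gene and ends within an intron 81.0 kb downstream. It had 33.7, 22.1 and 26.0 TPM in replicates 1 to 3, or 37.6% ± 4.05 of the gene (33.3% ± 6.13 in the second table). Its last exon runs through the splice donor printed above and holds 1824 of the 4118 bases of that intron. Nfkb1-208 and Nfkb1-210 are single-exon models at 69.4 to 73.6 kb and 87.7 to 89.7 kb. They held 13.5% ± 1.41 and 13.1% ± 2.12 of the gene (10.6% and 10.7% in the second table). Of their bases, 96.1% in Nfkb1-208 and 92.9% in Nfkb1-210 lie outside the exons of coding transcripts, whereas in Nfkb1-202 (12.2% ± 1.02 of the gene, 83.1 to 106.7 kb) only 7.46% do. In Nfkb1-204 the figure is 53.95%, and its other bases are shared with exons of coding transcripts.

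Among its coding transcripts, Nfkb1-206 (23.7 to 106.3 kb, 23 exons) had 9.05, 10.7 and 10.3 TPM, or 14.1% ± 2.61 of the gene. Nfkb1-203, which starts at 83.3 kb, held 7.16% ± 2.51 (2.84% in the second table). Nfkb1-201, the 25-exon coding transcript that spans the gene, was listed at 0 in every library of the first table. In the second table it was listed at 0 in replicates 1 and 2 and at 0.546 TPM in replicate 3. Nfkb1-205, a processed transcript of 528 bases, held 1.77% ± 1.87 in the first table and 11.5% ± 6.65 in the second.

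Position along Nfkb1 was summarised around 82 kb, a point between Nfkb1-204 and Nfkb1-202 chosen after the models were seen. Transcripts that end before it had 45.0, 31.7 and 34.3 TPM, or 51.1% ± 4.13 of the gene. Transcripts that start after it had 26.5, 23.2 and 25.1 TPM, or 34.8% ± 1.64. Transcripts that run across it had 9.05, 10.7 and 10.3 TPM, or 14.1% ± 2.61. In the second table the 3 shares were 43.9%, 38.02% and 18.1%. The DNA-binding Rel domain of p105 is encoded in the 5′ exons of the gene and the ankyrin repeats in the 3′ exons.

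Nfkb2 transcripts, by contrast, mostly ran to the end of the gene, with 92.8% ± 2.98 of the level in models that reach its last 1 kb (75.9% ± 8.069 in the second table), against 34.0% ± 4.82 for Nfkb1 (34.0% ± 2.35). They differed in where they begin. Nfkb2-202, which starts 1.376 kb into the gene at the second printed promoter, had 13.3, 16.8 and 20.8 TPM, or 42.5% ± 7.26 of Nfkb2. Transcripts that start in the first 0.5 kb had 15.8, 12.9 and 14.4 TPM, or 36.2% ± 4.64, nearly all of it in Nfkb2-206 (33.8% ± 2.91). The upstream starts were ahead in replicate 1, and Nfkb2-202 was ahead in replicates 2 and 3. In the second table Nfkb2-202 held 34.4% ± 6.92 and the upstream starts 23.9% ± 2.71, with Nfkb2-202 ahead of them in each library. Transcripts that start after 1.5 kb, further inside the gene, held 21.2% ± 4.23 in the first table and 41.6% ± 7.61 in the second, where they were the largest of the 3 groups in replicates 1 and 3.

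The retained-intron transcript of Nfkb2, Nfkb2-207, keeps introns of 121 and 80 bases whole and held 14.0% ± 3.63 of the gene (17.5% in the second table). The coding transcript Nfkb2-206, with 33.8% of the gene, keeps a different intron of 80 bases, at 7.373 to 7.453 kb. The class share thus does not cover all intron-keeping models of Nfkb2. Nfkb2-203, a processed transcript of 384 bases, had 2.10, 4.17 and 2.33 TPM in the first table and 27.0, 8.46 and 18.2 TPM in the second. It drew 5 to 9 expected counts in the first table, so its level rests on few reads. Nfkb2-204 held 2.39% ± 1.74 of the gene (4.94% in the second table).

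**Figure D3:**
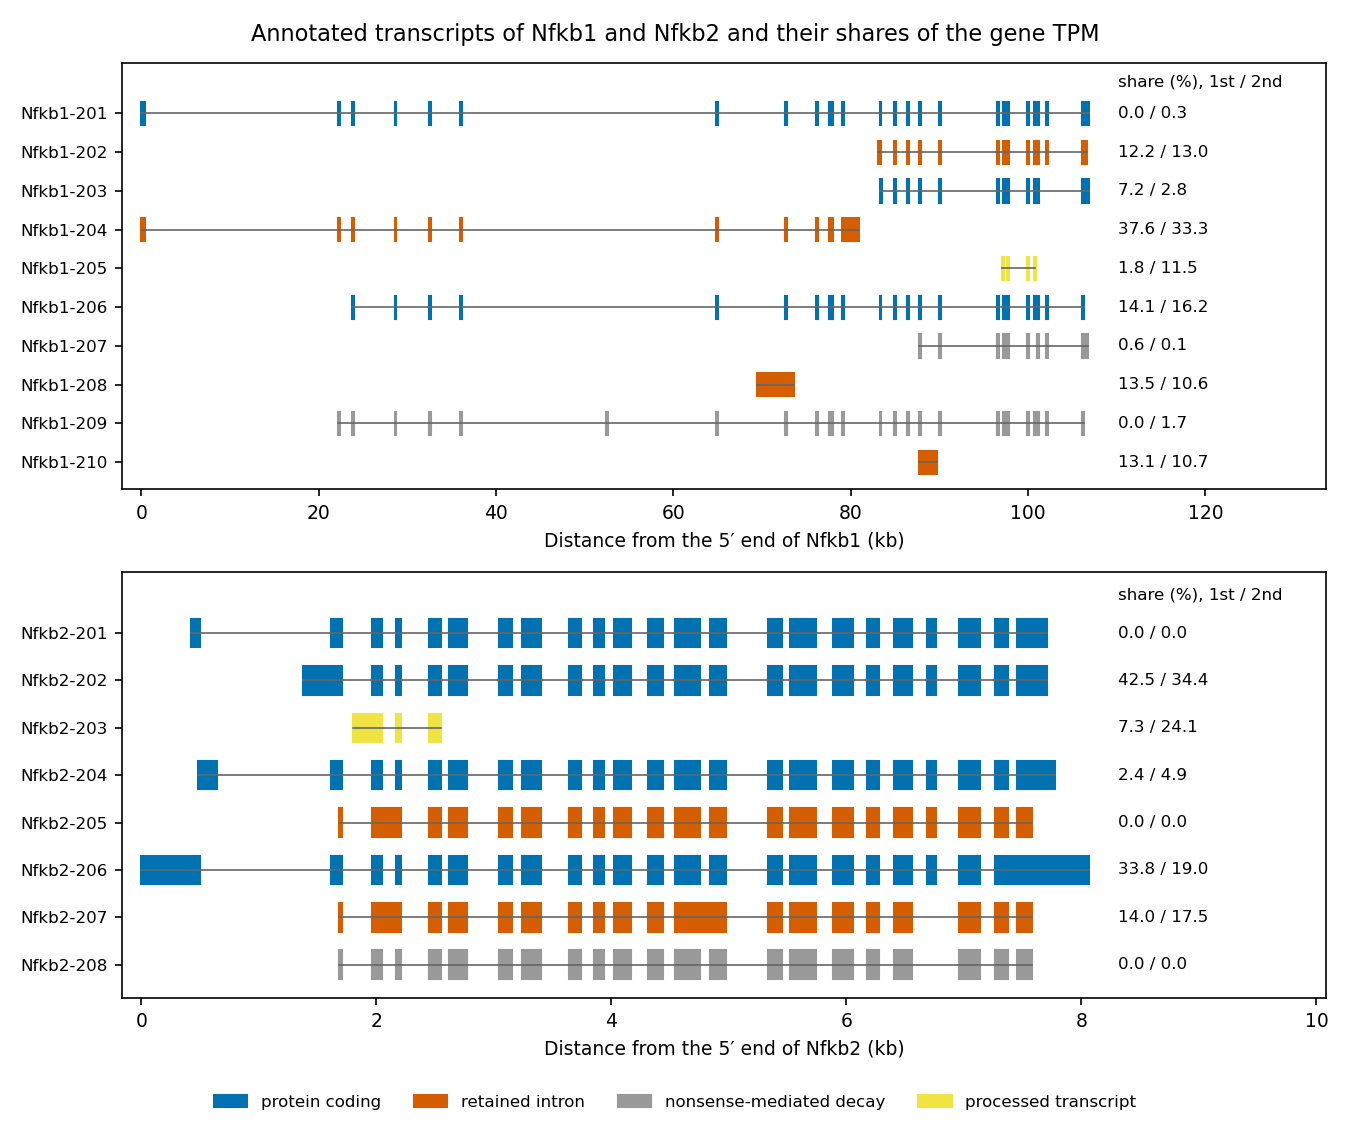
Annotated transcripts of Nfkb1 (above) and Nfkb2 (below) drawn to scale by distance from the 5′ end of the gene (horizontal axis, kb); boxes are exons, widened to a visible minimum, lines are introns, colours give the transcript class and the numbers are mean shares in percent in the first and second tables. The leading Nfkb1 model, Nfkb1-204, stops at 81.0 kb of 106.9 kb, and Nfkb2-202 starts 1.376 kb into Nfkb2.

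For Rela, the full-length coding transcript Rela-201 had 11.7, 11.8 and 12.2 TPM in the first table, a spread far smaller than that of the gene. The second table gave it 7.63, 6.81 and 7.98 TPM, lower in each library although the gene as a whole was higher there. The higher gene level lay mainly in shorter models. Rela-203 (786 bases, retained intron) had 6.12, 4.33 and 3.20 TPM in the first table and 21.2, 16.3 and 19.5 in the second. Rela-205 (363 bases) had 0, 0 and 0.660 TPM in the first and 11.4, 7.96 and 16.6 in the second. Rela-207 (728 bases) had 1.92, 0.990 and 0.310 TPM in the first and 14.4, 10.97 and 9.52 in the second. Only 35 of the 786 bases of Rela-203 lie outside exons of coding transcripts. Rela-206 and Rela-204, both marked for nonsense-mediated decay, held 8.18% and 0% of the gene in the first table and 9.05% and 10.1% in the second, and Rela-202 held 0% and 5.22%.

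Single models of Relb changed places between the tables. Relb-206, which keeps 966 bases of a 1324-base intron upstream of the printed acceptor, led the first table with 7.99, 8.04 and 7.71 TPM, or 30.7% ± 4.36 of the gene. The second table gave it 1.92, 0.936 and 0 TPM, or 2.30% ± 2.05, and put the intron-keeping level in Relb-208 (21.8%) and Relb-205 (18.02%), which keep the same 966 bases. The summed retained-intron share was close in both tables, as given above. Likewise the coding transcript Relb-202 held 21.4% ± 6.77 in the first table and was listed at 0 in the second, where Relb-201 held 13.7% ± 8.22, against 1.82% ± 3.15 in the first. Relb-209, a short coding model, held 17.6% and 16.0%, and the processed transcript Relb-204 held 15.4% and 27.4%.

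Counting protein-coding transcripts alone, a comparison added after the data were seen, changed the order of the family. In the first table Nfkb2 led with 29.2, 29.7 and 35.1 TPM (mean 31.3 ± 3.32), followed by Rel with its whole level of 18.3 ± 4.31. Nfkb1 had 12.5, 16.4 and 16.2 TPM (15.0 ± 2.21), Rela 11.7, 11.8 and 12.9 TPM (12.1 ± 0.650) and Relb 9.38, 10.4 and 13.2 TPM (11.0 ± 1.98). Nfkb1 minus Nfkb2 was then -1.02 ± 0.18 on the log2(TPM + 1) scale, negative in 3 of 3 libraries (exact sign-flip permutation p = 0.25). The second table gave -1.44 ± 0.17 for the same difference, with means of 40.5 ± 4.31 TPM for Nfkb2 and 14.4 ± 2.40 TPM for Nfkb1. Much of the coding level of Nfkb2 lay in Nfkb2-206, with 14.16, 12.45 and 13.61 TPM in the first table. That model keeps an intron and overlaps the opposite-strand genes AC114539.1 and Psd, described below. Nfkb2-202 alone had 13.3, 16.8 and 20.8 TPM, nearer to Nfkb1, and the difference without Nfkb2-206 was not tested. Rel minus the others is not comparable in the same way, since no noncoding transcript is annotated for it.

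**Figure D4:**
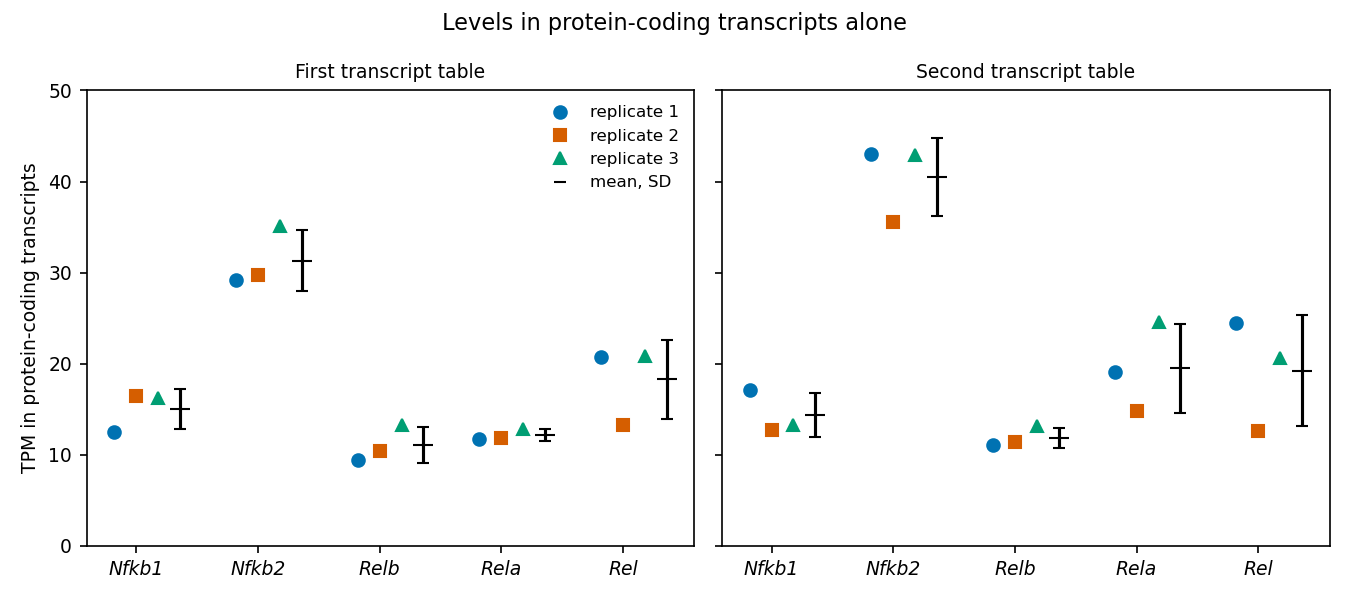
Level of each Rel gene in its protein-coding transcripts alone (vertical axis, TPM) by library, from the first transcript table on the left and the second on the right; symbols are replicates 1 to 3 and bars the mean ± SD. Nfkb2 stood at 29.2 to 35.1 TPM on the left, above Nfkb1 at 12.5 to 16.4 TPM. Nfkb2-206, a coding model that keeps an intron, made up 12.45 to 14.16 TPM of that Nfkb2 level.

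Of the promoter windows, 1480 of 32851 (4.51%) held the κB consensus, as did those of 1388 of 27025 genes (5.14%). Rel, Rela and Nfkb2 had windows in the table, Nfkb2 more than 1. The share over genes takes no account of the number of windows per gene. Positions below count from 0 at the base that follows the 250 upstream bases. Rel held 1 joined match of 11 bases at -92 to -82. Nfkb2 held 2 in the upstream window, at -39 to -29 and at -11 to -2, both inside the first exon of Nfkb2-206. The annotated start in that window is that of Nfkb2-201, listed at 0 in every library of both transcript tables. Nfkb2-206 starts before that window, at the first base of the gene. The window of Nfkb2-202 held 2, at -236 to -227 and at 10 to 19. A further Nfkb2 window, chr19:46305680-46305979, held the last of these matches again, at -225 to -216. The window of Rela held no match, which says only that the letters are not in this stretch.

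Annotated neighbours bear on how reads at these loci were assigned, since the strand setting of the counting is not given in the sources used here. Gm43430, an unspliced model of 3897 bases on the same strand, lies in an Nfkb1 intron 37.0 kb from the gene start and overlaps no Nfkb1 exon. It had 19.1, 11.2 and 12.3 TPM on 940, 661 and 774 expected counts, highest in replicate 1, as was Nfkb1. On the opposite strand, AC114539.1, a noncoding RNA that overlaps the first part of Nfkb2 by 1292 bases, had 15.1, 13.0 and 15.6 TPM. Psd, which overlaps the end of Nfkb2 by 299 bases, had 19.8, 15.1 and 18.1 TPM. Levels of Nfkb2 and of these overlapping genes are uncertain to the extent that reads could not be told apart by strand. Rel, Rela and Relb overlap no other annotated gene, and 5 genes start or end within 5 kb of them (Pus10, Sipa1, Clasrp, Gm26890 and Clptm1).

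The spread of each gene between libraries was estimated with edgeR as a biological coefficient of variation (BCV) from the counts of 14193 genes, whose median was 0.203. It was 0.169 for Nfkb1, 0.168 for Nfkb2, 0.178 for Relb, 0.179 for Rela and 0.2002 for Rel. Rel lay at percentile 46.9 of the genes fitted and the others between 4.19 and 18.3. The trend fitted across genes by abundance was 0.186 for Rel, below its BCV. For the others it was 0.186 to 0.202, in each case above the BCV of the gene. DESeq2 gene-wise dispersions gave 0.0927 for Nfkb1, 0.0865 for Nfkb2, 0.0942 for Relb, 0.0497 for Rela and 0.230 for Rel, with a median of 0.135. Rel then lay at percentile 74.5 and the others between 27.1 and 38.2. After TMM scaling, Rel had a CPM (counts scaled to library size) of 137, 92.9 and 149 in replicates 1 to 3, so its low value in replicate 2 was seen in scaled counts as well as in TPM. Replicate 2 had the least starting RNA and the largest share of ribosomal counts, and their part in this value was not tested. The BCV of Rel was 0.169 without replicate 2 and 0.179 without replicate 1, both below the value from all libraries. Without replicate 3 it was 0.227, which is the trend fitted across genes.

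The genes whose centred log2(TPM + 1) values over the 3 libraries were most like those of Rel were Ebi3, a cytokine subunit gene with 9.90, 6.18 and 9.88 TPM, and St8sia4, a sialyltransferase gene with 2.98, 1.63 and 3.05 TPM. Their root mean square differences from Rel were 0.0053 and 0.0070, and 40 of 9688 genes compared lay within 0.05. The nearest to Nfkb1 were Nub1 and Usp33 (554 genes within 0.05), to Nfkb2 Cd63 among others (447), to Rela Lgals8 and Msi2 (520), and to Relb Fbxl5 and Nkapd1 (195). With 3 libraries such likeness describes these values only.

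The regulators of the Rel proteins were nearly all present. All 8 genes of the list named IκB family were detected in the gene table, and 7 in the second quantification. Of 22028 protein-coding genes, 9689 were detected in the gene table and 11833 in the second quantification. The counts of this list and of those below stand beside these shares. The median of the IκB list was 32.2 TPM against 0.552 TPM over all protein-coding genes. Nfkbia, which encodes the inhibitor IκBα, had 268, 157 and 282 TPM, and Nfkbiz, which encodes the nuclear regulator IκBζ, had 154, 58.9 and 128 TPM. Like Rel, both were lowest in replicate 2, and the summed list stood at 557, 313 and 552 TPM. The lowest gene placed in that list was Ankrd42 at 1.10 ± 0.0710 TPM.

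All 10 genes of the list named canonical kinase module were detected (median 43.9 TPM). The genes of the IKK complex in it, Chuk, Ikbkb and Ikbkg, had 76.4 ± 3.999, 72.25 ± 1.40 and 22.5 ± 3.94 TPM. The highest of the list was Ikbke at 975 ± 95.9 TPM. It encodes IKKε, a kinase related to the IKK complex rather than a subunit of it. Its relative Tbk1 had 151 ± 40.3 TPM (197, 133 and 122 in replicates 1 to 3), and the adaptor gene Tab3 was lowest at 4.16 ± 1.04. All 7 genes of the noncanonical module were detected (median 22.6 TPM). They were led by Birc3, a ubiquitin ligase gene, at 169 ± 46.97 TPM and Chuk, which encodes the kinase IKKα and belongs to both lists, at 76.4 ± 3.999. Traf3, an adaptor that holds NIK in check, was lowest at 9.64 ± 0.944. Of 6 receptors that feed this arm, 4 were detected in the gene table, led by Tnfrsf1b at 59.6 ± 5.60 TPM and Tnfrsf11a (RANK) at 30.8 ± 3.19. The second quantification put 5 past the same level, and the leading gene depended on the quantification. Cd40 led there at 160 ± 96.2 TPM, against 21.8 ± 12.6 in the gene table, and Tnfrsf1b followed at 105 ± 27.8. Tnfrsf13c, the BAFF receptor gene of B cells, was listed at 0 in the gene table and averaged 4.86 TPM in the second quantification.

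All 10 genes for precursor processing and IκB ubiquitination were detected (median 31.5 TPM), from Ube2d3, a ubiquitin-conjugating enzyme gene, at 109 ± 24.95 TPM and Map3k8, whose kinase is bound by p105, at 101 ± 35.6, down to Skp1a at 4.48 ± 0.494. All 21 nuclear cofactors and modifiers were detected (median 15.98 TPM), led by the kinase gene Pim1 at 140 ± 23.99 TPM and the demethylase gene Kdm2a at 83.5 ± 3.52. All 7 genes for nuclear import and export were detected (median 11.3 TPM). Xpo1, the export receptor, stood at 143 ± 30.7 TPM, the importin gene Kpnb1 at 38.1 ± 2.79 and Kpna2 at 4.58 ± 0.324.

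Against the other signal-driven factors, the median of the Rel list lay below that of the STAT and of the IRF list in every library. The mean list medians on the log2(TPM + 1) scale were 4.75 for the Rel genes against 6.18 for STAT and 6.16 for IRF genes. The differences were -1.43 ± 0.26 and -1.40 ± 0.49, each negative in 3 of 3 libraries (exact sign-flip permutation p = 0.25, adjusted over the 2 differences 0.25). In the second quantification they were -0.71 ± 0.19 and -1.05 ± 0.47. Of the STAT genes 6 of 7 were detected, from Stat2 at 585 ± 128 TPM to Stat4 at 0.797 ± 0.0737. Of the IRF genes 7 of 9 were detected, from Irf1 at 411 ± 186 TPM and Irf7 at 315 ± 87.6 to Irf4 at 0.217 ± 0.0833. The Rel genes spanned the narrowest range of the 3 families, with no member below 18.3 TPM or above 71.96 TPM on average.

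**Figure D5:**
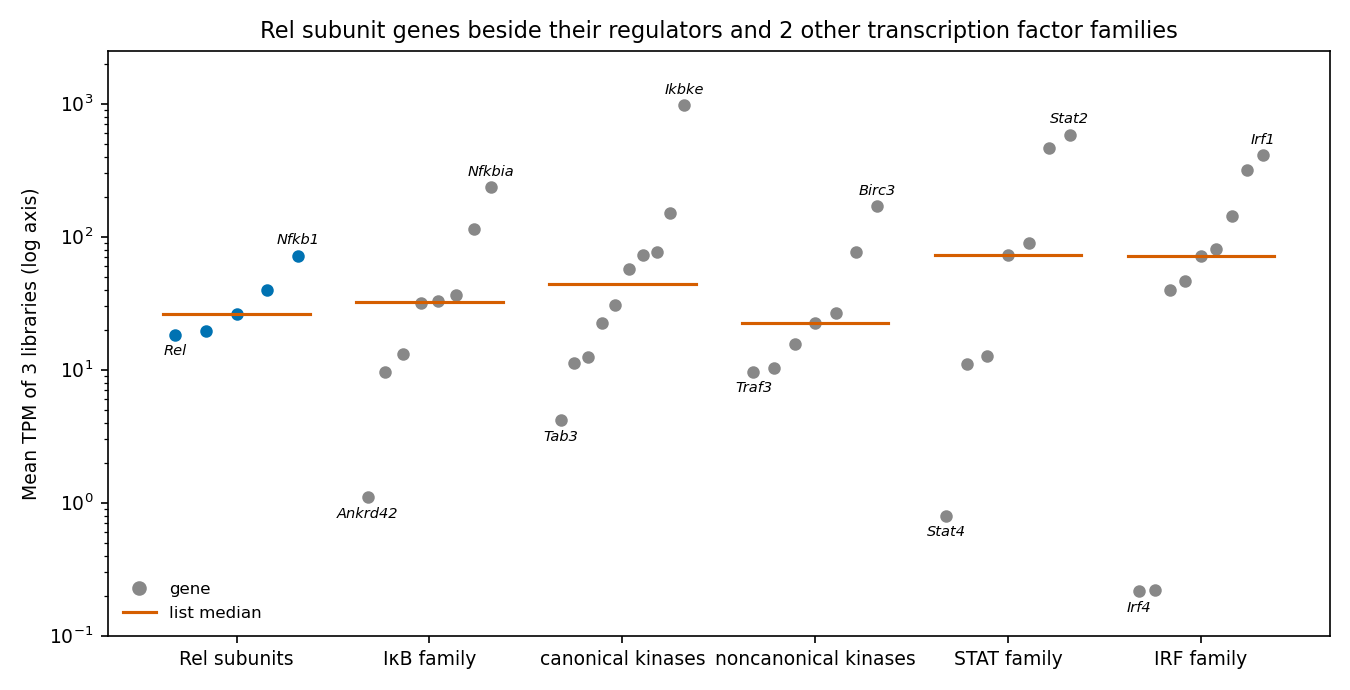
Mean level of each gene over 3 libraries (vertical axis, TPM, log scale) in the Rel family, 3 lists of its regulators and the STAT and IRF families; points are genes, lines list medians, and the highest and lowest gene of each list are named. The Rel genes lay between 18.3 and 71.96 TPM, below the leading members Stat2 (585 TPM) and Irf1 (411 TPM).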

How the data were processed

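Chromatin-bound RNA, depleted of ribosomal RNA, was sequenced in 3 libraries of 1 group. Per the file headers, the authors' gene table and first transcript table hold expected counts and TPM, in columns named as RSEM names them. The authors' second transcript table holds TPM and estimated counts under kallisto's column names, and its TPM were summed per gene here. Notes deposited beside the files give mm10 and GENCODE M21. The authors also deposited FPKM, isoform percent values and, for TPM, interval bounds (treated as a signal), of which only the bounds are printed here. Aligner, versions and strandedness: not given in the sources used here. Such programs divide shared reads between overlapping transcripts by a model, so transcript shares depend on it. Of 81881 rows, the 55536 annotated genes were used; the others held 1.75%, 0.396% and 0.239% of counts in replicates 1 to 3. A count of 0 allows up to 3 counts, or 0.222, 0.168 and 0.168 CPM, which covers counting error only.

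Levels were compared as log2(TPM + 1) within libraries by exact two-sided sign-flip permutation tests with Benjamini-Hochberg adjustment. Expected counts were rounded for edgeR 4.0.16 (R 4.3.3; TMM, filterByExpr, intercept only), with DESeq2 1.42.0 as an alternative. Tested on simulated data, BCVs drawn around 0.2 (13993 genes) were estimated at a median of 0.237 and 200 genes at 0.6 at 0.387, so large spreads are pulled towards the trend. Other tools were scipy 1.17.1, pandas 2.3.3, matplotlib 3.10.9, numpy 2.4.6 and Python 3.11.15. Named were the 5 genes, their transcripts with at least 5% of the gene in any library, the 2 highest and the lowest gene of each other list, the 2 nearest genes by pattern and annotated neighbours within 5 kb. The members and lists were chosen with earlier results of these data known. The cell type markers, Nfkb1-201, Nfkb2-201, Cd40, Ikbkb and Ikbkg fall outside that rule and were named after their values were seen. A few genes that the rule would name are not reported here.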

Additional observations from a re-analysis of the deposited data

How the results depend on the processing

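No paired analysis was possible because the 3 libraries belong to 1 group. Of the pair differences, 12 alternative values reversed. With a smallest possible p of 0.25 none could change its side of the threshold. On the log2(TPM + 1) scale, Relb minus Rela was -0.68 in the second quantification. Leaving out 1 replicate gave -0.034 to 0.233 for Rela minus Rel, the negative value without replicate 2. With protein-coding transcripts alone, chosen after seeing the data, the reversed values were -1.02 for Nfkb1 minus Nfkb2, -0.25 for Nfkb1 minus Rel, -0.14 for Relb minus Rela, -0.67 for Relb minus Rel and -0.53 for Rela minus Rel. With the same restriction in the second table they were -1.44 for Nfkb1 minus Nfkb2, -0.40 for Nfkb1 minus Rela, -0.36 for Nfkb1 minus Rel, -0.65 for Relb minus Rela and -0.61 for Relb minus Rel. Those that involve Rel are not comparable in the same way. No noncoding transcript is annotated for Rel, so the restriction lowers only the other genes. The difference of the Rel list from the STAT list ranged from -1.59 (detected members alone) to -0.71 (second quantification) over its alternatives, and that from the IRF list from -1.63 (without replicate 3) to -1.05 (second quantification). Protein-coding shares moved beyond 1 SD for Nfkb2 (58.4% in the second table and 87.1% by counts), Rela (29.1% and 83.3%) and Relb (29.6% and 30.8%). With DESeq2 gene-wise dispersions the BCV was 0.0927 for Nfkb1, 0.0865 for Nfkb2, 0.0497 for Rela and 0.0942 for Relb. Leaving out 1 replicate gave a BCV of 0.144 to 0.227 for Nfkb1, 0.149 to 0.227 for Nfkb2, 0.169 to 0.227 for Rel, 0.154 to 0.234 for Rela and 0.154 to 0.234 for Relb. The upper end of each range came without replicate 3. There the estimate equalled the trend fitted across genes, so it holds nothing particular to the gene. The cause of these shifts was not tested. Transcripts with few counts, such as Nfkb2-203 in the first table, have levels that rest on few reads.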
